A study of Homo sapiens with 12 samples.

Results

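MKN45 and MKN28 are established human gastric cancer cell lines, and the RNA levels of their control cultures were compared across all genes. The members were the 3 control libraries of MKN45 and the 3 control libraries of MKN28, chosen by their labels, 6 of the 12 libraries of the study. Every control culture was labelled wild type (genotype WT) and carried the control lentivirus, LV-Control. The other 6 libraries came from MKN28 cells with LV-ZNF165-siRNA, a knockdown of the zinc finger gene ZNF165, and from MKN45 cells with LV-ZNF165, its overexpression. The description labels of knockdown replicates 2 and 3 instead name LV-ZNF166-siRNA and LV-ZNF167-siRNA, against the genotype label of ZNF165 knockdown, which was followed here. ZNF165 had 74, 40 and 22 counts in the 3 knockdown libraries and 262, 186 and 287 in the MKN28 controls. The 2 control groups thus share the control vector and differ by the line. Each line is 1 line from 1 tumour, so a difference between them is not a difference between tumour classes. The labels do not say whether the 3 libraries of a group came from separate cultures, so the p-values measure only library-to-library spread, part of which may be technical.

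As background, MKN45 was derived from a poorly differentiated gastric adenocarcinoma and is known for amplification of the receptor gene MET. MKN28 is registered as a misidentified line that shares its DNA profile with MKN74, a line from a tubular gastric adenocarcinoma. Gastric and intestinal epithelium is a simple layer of mucus-secreting, absorptive or gland cells, and its genes are driven by transcription factors of the HNF, GATA and FOXA families. Stratified epithelium, as in skin and oesophagus, uses other factors, such as ZNF750 and GRHL3, and other keratins. Cancer lines of the same organ can differ in which of these programmes they transcribe.

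The control libraries held 15333499 to 18679466 counts and 20425 to 22579 genes with at least 1 count. Library replicates of a line had Pearson correlations of 0.972 to 0.991 over log2(CPM + 1), where CPM is the count scaled to library size, here by library totals alone. The CPM values of single genes given here and below were further scaled by the trimmed mean of M-values (TMM). Mitochondrial genes took 5.08% to 7.05% of counts in MKN28 and 9.27% to 13.8% in MKN45, and their part in the differences below was not tested. In both lines replicate 2 stood apart in base composition: across 13923 genes, Spearman's rho of the level with GC content was 0.0784 and 0.134 in the 2 replicates 2 and -0.133 to -0.0683 in the other 4 controls. ZNF165, the gene the study altered, was at 13.8, 10.2 and 15.6 CPM in MKN28 and at 8.6, 10.9 and 17.2 CPM in MKN45 and did not pass the test between the control groups (log2 fold change -0.11 ± 0.39 SE, edgeR adjusted p = 0.84).

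Of 16088 genes with enough counts to be tested, 6717 differed between the lines at an edgeR quasi-likelihood adjusted p under 0.05, which is 41.8%. Of these, 3442 were higher in MKN45 (21.4% of genes tested) and 3275 in MKN28 (20.4%). The median log2 fold change, MKN45 over MKN28, was -0.0391 over all genes tested. A fitted difference of at least 8-fold was found for 2140 of the called genes (13.3% of genes tested). The 3 libraries of one line all lay above the 3 of the other for 8410 genes (52.3%). These shares are the background against which each gene list below is to be read. With the replicate number as a block, 8939 genes passed, and without MKN28 replicate 1 it was 5085.

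**Figure D1:**
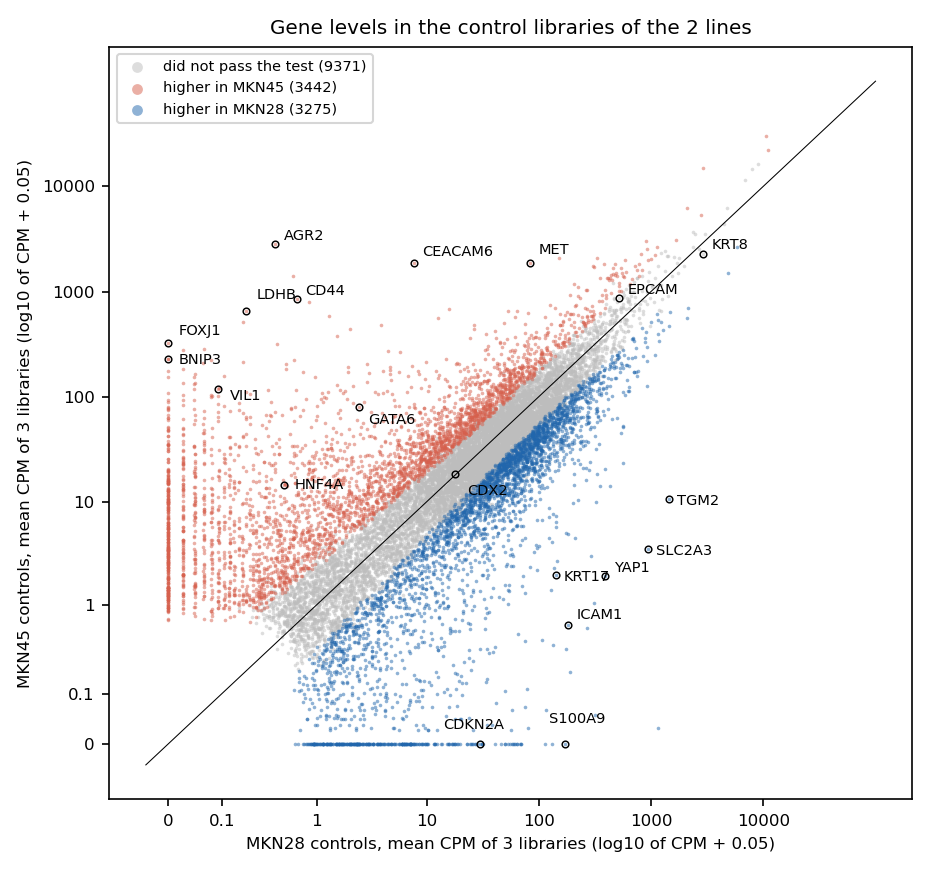
Mean CPM of the 3 MKN45 control libraries against the mean CPM of the 3 MKN28 control libraries for each of 16088 genes tested, both axes log10 of CPM + 0.05; colours give the genes past the test in each direction. CD44, AGR2 and LDHB sit far above the diagonal and TGM2, YAP1 and ICAM1 far below it, whereas KRT8, EPCAM and CDX2 lie near it.

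The labelled cell type, a gastric cancer cell, was checked against markers. General epithelial markers were high in both lines: the adhesion molecule EPCAM was at 567, 477 and 527 CPM in MKN28 and at 921, 796 and 865 CPM in MKN45, and E-cadherin, CDH1, at 367, 458 and 326 CPM in MKN28 and at 408, 344 and 286 CPM in MKN45. KRT8, KRT18 and KRT19, the keratins of simple epithelium, had means of 2921, 1958 and 1330.3 CPM in MKN28 and 2292, 1732 and 1570.0 CPM in MKN45. None of these 5 genes passed the test (edgeR adjusted p = 0.0584 for EPCAM and 0.529 to 0.754 for the others); with the replicate block EPCAM passed (adjusted p = 0.00872). Of the epithelial identity list, 2 of 15 tested were higher in MKN45 and 1 in MKN28, with a median log2 fold change of -0.18. The counts were 3 and 6 with the replicate block and 3 and 4 without MKN45 replicate 2. ELF3, an epithelial transcription factor, was 12.3-fold higher in MKN45, log2 fold change 3.62 ± 0.45 SE, edgeR adjusted p = 4.31e-05. The leukocyte, fibroblast and endothelial marker lists had 3 of 10, 2 of 10 and 1 of 7 genes with enough counts to be tested. Of the leukocyte markers tested, 1 was called higher in MKN45 and 2 in MKN28. Of the fibroblast markers 1 was called in each direction, and the endothelial marker did not pass. The neuroendocrine list had 4 of 10 genes tested, 2 called higher in MKN45 and 1 in MKN28. The gastric markers GKN1 and MUC6 had 0 to 2 counts in the 3 libraries of each line, and TFF2 and CLDN18 had too few to be tested. The gastric markers MUC5AC and, at a low level, TFF1 were present in MKN45 and near 0 in MKN28, as given below. The label thus rests on general epithelial genes in MKN28. In a bulk culture, fewer cells that transcribe a gene and less RNA per cell cannot be told apart.

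Some genes were fully silent in one line and abundant in the other. With silence defined as 0 counts in all 3 libraries of a line, and abundance as a mean of at least 20 CPM in the other, 37 of 13354 protein-coding genes tested (0.277%) were silent in MKN28 and 30 (0.225%) in MKN45. The highest of those silent in MKN28 was FOXJ1, the regulator of motile cilia, at 0 counts in all 3 MKN28 libraries and at 239.7, 473 and 259 CPM in MKN45 (at least 5993-fold higher, edgeR adjusted p = 4.74e-07). BNIP3, a mitochondrial protein of autophagy and the response to low oxygen, was at 0 counts in all 3 MKN28 libraries and at 245, 206 and 228 CPM in MKN45 (at least 4189.5-fold higher, edgeR adjusted p = 3.22e-07). ELOVL5, an elongase of polyunsaturated fatty acids, was at 0 counts in all 3 MKN28 libraries and at 219, 139 and 170.2 CPM in MKN45 (at least 3259.6-fold higher, edgeR adjusted p = 4.06e-07). No MKN28 library held any count of these 3 genes, so the folds are lower bounds against a floor of 3 counts over the group. On the other side, S100A9, a subunit of calprotectin, was at 140.3, 276 and 103 CPM in MKN28 and 0 counts in all 3 MKN45 libraries (at least 2714-fold higher, edgeR adjusted p = 1.15e-06). MAGEB2, a cancer/testis antigen, was at 108, 145 and 139 CPM in MKN28 and 0 counts in all 3 MKN45 libraries (at least 2048-fold higher, edgeR adjusted p = 4.57e-07). TENM3, a teneurin of cell adhesion, was at 132, 60.9 and 147 CPM in MKN28 and 0 counts in all 3 MKN45 libraries (at least 1777-fold higher, edgeR adjusted p = 1.19e-06).

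The promoters of 3 genes of each silent set are shown because these genes were on in one line and at 0 in the other. They are the most abundant of their set with a sequence in the RefSeq promoter set used here (GRCh38.p14, 250 bases before to 50 after the start). FOXJ1, CMBL, HEXA and VSIG1, silent in MKN28 and more abundant in MKN45 than NLRX1, had no sequence in that set. CG dinucleotides, the sites of DNA methylation, are in capitals. BNIP3 lies at chr10:131981874-131982173, minus strand, 48 CG pairs, ELOVL5 at chr6:53348901-53349200, minus strand, 26 CG pairs, and NLRX1, a mitochondrial NOD-like protein that was at least 1709-fold higher in MKN45, at chr11:119168084-119168383, plus strand, 5 CG pairs. S100A9 lies at chr1:153357604-153357903, plus strand, 5 CG pairs, MAGEB2 at chrX:30215313-30215612, plus strand, 21 CG pairs and TENM3 at chr4:182143713-182144012, plus strand, 22 CG pairs. Each is read 5′ to 3′ on the gene's strand.
BNIP3: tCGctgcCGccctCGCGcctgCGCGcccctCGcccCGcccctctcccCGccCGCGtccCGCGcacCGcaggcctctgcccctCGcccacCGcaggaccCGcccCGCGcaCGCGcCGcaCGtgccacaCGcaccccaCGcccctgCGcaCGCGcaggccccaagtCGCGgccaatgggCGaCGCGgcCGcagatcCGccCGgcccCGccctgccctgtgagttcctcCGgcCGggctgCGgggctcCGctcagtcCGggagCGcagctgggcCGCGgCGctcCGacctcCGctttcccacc
ELOVL5: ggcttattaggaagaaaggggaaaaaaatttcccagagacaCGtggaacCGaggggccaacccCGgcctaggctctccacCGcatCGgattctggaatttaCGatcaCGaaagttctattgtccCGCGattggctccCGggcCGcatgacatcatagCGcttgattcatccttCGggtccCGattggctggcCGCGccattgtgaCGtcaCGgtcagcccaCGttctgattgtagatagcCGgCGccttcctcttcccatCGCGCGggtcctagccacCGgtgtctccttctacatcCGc
NLRX1: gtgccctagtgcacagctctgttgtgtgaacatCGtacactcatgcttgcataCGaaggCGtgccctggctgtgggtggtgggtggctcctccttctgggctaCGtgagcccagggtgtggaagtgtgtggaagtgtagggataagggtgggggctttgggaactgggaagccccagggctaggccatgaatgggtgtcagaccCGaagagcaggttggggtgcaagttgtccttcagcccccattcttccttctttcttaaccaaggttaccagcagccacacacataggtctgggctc
S100A9: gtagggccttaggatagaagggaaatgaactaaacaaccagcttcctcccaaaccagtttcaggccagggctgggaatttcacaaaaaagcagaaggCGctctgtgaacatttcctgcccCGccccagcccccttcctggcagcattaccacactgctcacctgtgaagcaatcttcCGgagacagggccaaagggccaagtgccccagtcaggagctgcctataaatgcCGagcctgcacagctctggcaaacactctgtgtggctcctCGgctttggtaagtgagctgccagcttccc
MAGEB2: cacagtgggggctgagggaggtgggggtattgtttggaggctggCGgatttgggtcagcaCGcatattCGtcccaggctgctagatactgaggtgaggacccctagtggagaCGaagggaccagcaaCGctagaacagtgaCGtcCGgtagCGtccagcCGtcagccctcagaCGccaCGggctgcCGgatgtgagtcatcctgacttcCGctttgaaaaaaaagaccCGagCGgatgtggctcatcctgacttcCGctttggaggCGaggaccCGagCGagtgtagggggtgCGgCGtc
TENM3: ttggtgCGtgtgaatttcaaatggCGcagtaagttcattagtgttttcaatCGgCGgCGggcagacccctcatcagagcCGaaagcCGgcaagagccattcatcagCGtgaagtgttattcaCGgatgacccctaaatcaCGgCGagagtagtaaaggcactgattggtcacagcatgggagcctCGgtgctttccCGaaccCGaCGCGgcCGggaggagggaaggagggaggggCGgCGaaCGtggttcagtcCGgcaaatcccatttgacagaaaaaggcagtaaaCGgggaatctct

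CG-rich promoters had at least 55% G and C and an observed over expected CG ratio of at least 0.6 on these 300 bases. They made up 60.0% of the 25 promoters available for the 37 genes silent in MKN28. Of the 19 available for the 30 genes silent in MKN45 they made up 57.9%. The share was 74.7% of the 10697 promoters of all protein-coding genes tested. It was 67.5% for genes called higher in MKN45 and 73.1% for those called higher in MKN28. Of the 6 sequences, BNIP3 has 48 CG pairs, whereas NLRX1 and S100A9 have 5 each. DNA methylation was not measured, and the counts describe the letters only.

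The remaining genes silent in MKN28 included CMBL (at least 4186.9-fold), HEXA (at least 2869.5-fold), VSIG1 (at least 1987.9-fold), CRIP1 (at least 1631-fold), ALDH1A1 (at least 1464-fold), MLF1 (at least 1461.6-fold), ST6GAL1 (at least 1409-fold) and OCIAD2 (at least 1372-fold). HEXA encodes the alpha subunit of lysosomal hexosaminidase, and RUNX3, at least 656.75-fold higher in MKN45, is a transcription factor known as a gastric tumour suppressor. SLC25A4, the mitochondrial ADP/ATP carrier, was at least 951.77-fold higher in MKN45, edgeR adjusted p = 1.05e-06. Further silent genes in that direction were SGCE, RPL39L, SUCNR1, EPDR1, FGL1, SH2D2A, FKBP5, BTBD16, SLC15A1, CHST10, MACROH2A2, MLPH, MATK, PGAP4, CNNM1, RAB32, MPV17L and TOX3. The genes silent in MKN45 included MAGEA12 (at least 1084-fold), ENG (at least 1083-fold), GABRA3 (at least 1064-fold), WNT6 (at least 1004.7-fold), TMEM154 (at least 949.7-fold), ITIH5 (at least 832-fold), SLC22A11 (at least 791.96-fold) and ZNF320 (at least 781-fold). ENG encodes endoglin, a co-receptor of TGF-beta, and WNT6 a Wnt ligand. The others in this direction were TMEM52B, THNSL2, XAGE2, FHIP2B, SVEP1, CSAG1, LY6K, PBDC1, FAM111B and MARCHF4, apart from genes described below. ZNF genes and cancer/testis antigens belong to families of near-identical copies, among which the counting could split reads.

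Several silent genes were neighbours. On chromosome 9, from 21077105 to 22009363 (GENCODE 29, GRCh38; the authors' build is not given in the sources used here), the 5 genes IFNB1, KLHL9, MTAP, CDKN2A and CDKN2B had 0 counts in every MKN45 library. CDKN2A, a cell cycle inhibitor locus, was at 26.8, 38.9 and 24.5 CPM in MKN28 and 0 counts in all 3 MKN45 libraries (at least 471.57-fold higher, edgeR adjusted p = 1.79e-06). MTAP, an enzyme of methionine salvage, was at 24, 16.3 and 15.3 CPM in MKN28 and 0 counts in all 3 MKN45 libraries (at least 290.4-fold higher, edgeR adjusted p = 3.05e-06), and CDKN2B, another inhibitor, was at least 94.087-fold higher in MKN28, edgeR adjusted p = 1.64e-05. The genes on either side were transcribed in MKN45: FOCAD was at 29.97, 22.8 and 27.9 CPM in MKN28 and at 33.2, 29.4 and 26.1 CPM in MKN45, and DMRTA1 at 0.105, 0.165 and 0.109 CPM in MKN28 and at 4.57, 3.67 and 4.91 CPM in MKN45. All 5 genes were thus at 0 as a block between transcribed flanks.

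At the start of chromosome 16, from 77007 to 268971, MPG, NPRL3 and LUC7L had 0 counts in MKN45 and FAM234A had 3 in all. MPG, a DNA glycosylase of base excision repair, was at 43.7, 87.3 and 33.9 CPM in MKN28 and 0 counts in all 3 MKN45 libraries (at least 862-fold higher, edgeR adjusted p = 2.42e-06). NPRL3, a brake on mTORC1 when amino acids are short, was at 57.2, 71.6 and 45.1 CPM in MKN28 and 0 counts in all 3 MKN45 libraries (at least 909-fold higher, edgeR adjusted p = 9.22e-07), and LUC7L, a splicing factor, was at least 488-fold higher in MKN28, edgeR adjusted p = 1.7e-06. The flanking genes were present: RHBDF1 was at 78.8, 103 and 64.5 CPM in MKN28 and at 35.5, 64.2 and 48.9 CPM in MKN45, and AXIN1, a scaffold of the beta-catenin destruction complex, at 87.7, 128 and 86 CPM in MKN28 and at 18, 16.4 and 13.2 CPM in MKN45 (6.34-fold higher, log2 fold change -2.66 ± 0.34 SE, edgeR adjusted p = 5.79e-05). SMAD4, the common mediator of TGF-beta and BMP signals, was also silent (chromosome 18, 51028394 to 51085045, plus strand). Runs of silent neighbours were sought at 3 genes or more, and SMAD4 lay in none. A silent pair would not be seen in this way. SMAD4 was at 23.9, 24.1 and 36.4 CPM in MKN28 and 0 counts in all 3 MKN45 libraries (at least 441-fold higher, edgeR adjusted p = 1.85e-06). The nearby genes ME2 and MEX3C were at 69.6 and 33.4 CPM in MKN45. The copy number of these regions was not measured. In MKN28, the 5 neighbours TCEAL8, BEX2, TCEAL9, BEX3 and TCEAL4 on chromosome X, small proteins of the BEX and TCEAL family, had 1 to 3 counts each over 3 libraries, against 916 to 3874 in MKN45.

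Most transcription factors of gastric and intestinal epithelium were higher in MKN45. Of the gastrointestinal transcription factors, 21 of 36 tested were higher in MKN45 and 4 in MKN28, with a median log2 fold change of 2.12. HNF4A, a nuclear receptor of endoderm, was at 0.58, 0.44 and 0.435 CPM in MKN28 and at 18, 12.8 and 12.7 CPM in MKN45 (29.9-fold higher, log2 fold change 4.88 ± 0.46 SE, edgeR adjusted p = 5.17e-06). GATA6 was at 2.11, 3.74 and 1.58 CPM in MKN28 and at 89.4, 81.7 and 66.5 CPM in MKN45 (32-fold higher, edgeR adjusted p = 2.96e-06). All 3 MKN45 libraries lay above all 3 MKN28 libraries for these genes, though the lines did not overlap for 52.3% of all genes tested. GATA4, its relative in the proximal stomach, was at 0.105, 0.275 and 0 CPM in MKN28 and at 13.9, 41.2 and 30.9 CPM in MKN45 (226-fold higher, log2 fold change 7.75 ± 0.76 SE, edgeR adjusted p = 7.43e-06). The pioneer factor FOXA2 was at 0.79, 0.715 and 0.708 CPM in MKN28 and at 74.3, 58.1 and 91.6 CPM in MKN45 (101-fold higher, log2 fold change 6.65 ± 0.42 SE, edgeR adjusted p = 4.74e-07). SOX2, a factor of the foregut and stomach, was at 0.158, 0.165 and 0.163 CPM in MKN28 and at 6.39, 4.45 and 6.09 CPM in MKN45 (34.8-fold higher, log2 fold change 5.06 ± 0.54 SE, edgeR adjusted p = 1.29e-05). Low as it was, SOX2 was also among the 52.3% of genes that did not overlap between the lines.

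Others of this list with at least 5 CPM in MKN45 were PAX6 (at least 183-fold), IRX3 (at least 183-fold) and MECOM (190.4-fold), each with edgeR adjusted p = 8.07e-06 or lower. HNF4G, another HNF4 receptor, was 16.8-fold higher in MKN45, log2 fold change 4.03 ± 0.80 SE, edgeR adjusted p = 0.00149. The intestinal factor CDX2 did not separate the lines: it was at 16.9, 23 and 13.2 CPM in MKN28 and at 17.1, 20.9 and 17.1 CPM in MKN45. CDX1, its relative, had 0 counts in all 6 libraries. LGR5, a stem cell receptor, had 32, 17 and 37 counts in MKN45 and 0 in MKN28 (at least 33.251-fold higher, edgeR adjusted p = 0.000114).

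The 4 called higher in MKN28 were led by ZNF750, a differentiation factor of stratified epithelium, at 58, 52.1 and 27.1 CPM in MKN28 and 0 counts in all 3 MKN45 libraries (at least 717.86-fold higher, edgeR adjusted p = 1.84e-06). TBX3 was 5.96-fold higher in MKN28, log2 fold change -2.58 ± 0.39 SE, edgeR adjusted p = 0.000197, and FOXD1 was 4.2-fold higher in MKN28, log2 fold change -2.07 ± 0.40 SE, edgeR adjusted p = 0.00135. Chosen after their values were seen, other factors of squamous and trophectoderm-type epithelium were also higher in MKN28. GATA3 was at 62.8, 76 and 56.8 CPM in MKN28 and at 0.441, 0.39 and 0.683 CPM in MKN45 (129-fold higher, log2 fold change -6.98 ± 0.45 SE, edgeR adjusted p = 4.74e-07). GRHL3 was at 43.3, 38.6 and 39.7 CPM in MKN28 and at 0.11, 0.937 and 0.0621 CPM in MKN45 (109.6-fold higher, log2 fold change -6.87 ± 0.72 SE, edgeR adjusted p = 1.25e-05). TFAP2C was at 144, 138 and 117 CPM in MKN28 and at 7.16, 8.98 and 6.71 CPM in MKN45 (17.5-fold higher, log2 fold change -4.13 ± 0.34 SE, edgeR adjusted p = 2.29e-06). TP63, the master factor of basal squamous cells, had only 1, 1 and 3 counts in MKN28, below the 46, 42 and 66 counts of MKN45. MKN28 thus had high ZNF750, GATA3 and GRHL3 with TP63 near 0.

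Genes of differentiated gastric cells lay mostly on the MKN45 side. Of the 25 gastric surface and gland genes listed, 11 had enough counts, and 10 of 11 tested were higher in MKN45 and 1 in MKN28, with a median log2 fold change of 5.06. The counts were 10 and 0 without MKN28 replicate 1, 9 and 0 without MKN28 replicate 2, 10 and 0 without MKN45 replicate 1 and 11 and 0 without MKN45 replicate 3. A gene near 0 in one line passes the count filter only through the other line. The share and median over genes tested therefore lean to large differences. With no filter on low counts, 12 of 19 were higher in MKN45 and 2 in MKN28, with a median log2 fold change of 3.95. MUC5AC, the main mucin of the gastric surface, was at 0, 0.22 and 0 CPM in MKN28 and at 44.1, 67.1 and 39.6 CPM in MKN45 (686-fold higher, log2 fold change 9.30 ± 0.77 SE, edgeR adjusted p = 2.24e-06). ANXA10, an annexin of gastric mucosa, was at 0.105, 0 and 0 CPM in MKN28 and at 185, 111 and 171 CPM in MKN45 (4440.4-fold higher, 95% counting interval 1229 to 36673, edgeR adjusted p = 3.32e-07). VSIG1, a junction protein of the stomach, was at 0 counts in all 3 MKN28 libraries and at 124, 92 and 106 CPM in MKN45 (at least 1987.9-fold higher, edgeR adjusted p = 4.69e-07). These 3 had at most 4 counts over the MKN28 libraries. MUC1, a membrane mucin, was at 8.69, 12.8 and 3.97 CPM in MKN28 and at 113, 259.8 and 124 CPM in MKN45 (19.5-fold higher, log2 fold change 4.29 ± 0.51 SE, edgeR adjusted p = 3.44e-05), and the sulfotransferase SULT1C2 was 394-fold higher in MKN45, 95% counting interval 109 to 3262, edgeR adjusted p = 4.06e-06. TFF1, a trefoil peptide, was low in MKN45, at 2.31, 3.04 and 1.55 CPM (125-fold higher, 95% counting interval 22 to 4987, edgeR adjusted p = 6.71e-05). TFF2, TFF3, CLDN18 and MUC6 had too few counts in either line to be tested, with at most 32 counts over 3 libraries. The exception was PSCA, a small surface antigen, at 30.1, 30.6 and 12.9 CPM in MKN28 and at 4.68, 14.8 and 4.35 CPM in MKN45, where the lines overlapped (3.08-fold higher, log2 fold change -1.63 ± 0.53 SE, edgeR adjusted p = 0.0268). The PSCA call was lost without MKN28 replicate 1 or 2 or MKN45 replicate 1 or 3 (edgeR adjusted p = 0.0741 to 0.106).

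Of the 36 intestinal genes listed, 15 had enough counts, and 12 of 15 tested were higher in MKN45 and 0 in MKN28, with a median log2 fold change of 7.94 (7.64 with genes at 0 in one line set at their bound). Genes near 0 in MKN28 entered this list only through MKN45, so its share and median lean to large differences. With no filter on low counts, 15 of 27 were higher in MKN45 and 0 in MKN28, with a median of 4.07. VIL1, villin of the brush border, was at 0.211, 0.055 and 0 CPM in MKN28 and at 102, 147 and 103 CPM in MKN45 (1325-fold higher, log2 fold change 10.24 ± 0.66 SE, edgeR adjusted p = 4.74e-07). LGALS4, a galectin of the gut, was at 0.316, 0.55 and 0.381 CPM in MKN28 and at 237, 394 and 313 CPM in MKN45 (757-fold higher, log2 fold change 9.54 ± 0.48 SE, edgeR adjusted p = 2.01e-07). TSPAN8, a tetraspanin, was at 0, 0.055 and 0 CPM in MKN28 and at 373, 195 and 258 CPM in MKN45 (15851-fold higher, 95% counting interval 2844 to 626130.0, edgeR adjusted p = 2.01e-07). These genes were abundant in every MKN45 library and near 0 in every MKN28 library. CEACAM5, the carcinoembryonic antigen, was at 1.37, 1.87 and 0.653 CPM in MKN28 and at 564, 850.0 and 356 CPM in MKN45 (455-fold higher, log2 fold change 8.82 ± 0.57 SE, edgeR adjusted p = 4.97e-07). CEACAM6 was at 9.8, 7.59 and 5.66 CPM in MKN28 and at 1953, 2373 and 1324 CPM in MKN45 (245-fold higher, log2 fold change 7.94 ± 0.45 SE, edgeR adjusted p = 3.22e-07). The CEACAM genes are close copies, so their split is uncertain. MUC13 and REG4, a membrane mucin and a secreted lectin, were at least 239.76-fold higher and 557-fold higher, 95% counting interval 99.5 to 22048 in MKN45. MUC2, the intestinal gel mucin, and KRT20 had at most 7 counts in a line and were not tested. CDH17, an intestinal cadherin, had 25, 2 and 14 counts in MKN45 and 0 in MKN28, also too few.

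Secretory genes outside the lists, named after their values were seen, showed the same split. AGR2, an endoplasmic reticulum chaperone of mucin-secreting cells, was at 0.316, 0.715 and 0.163 CPM in MKN28 and at 3116, 1970.0 and 3460.0 CPM in MKN45 (7156-fold higher, log2 fold change 12.78 ± 0.63 SE, edgeR adjusted p = 2.01e-07), one of the most abundant RNAs of MKN45. Its neighbour AGR3 was 3128-fold higher in MKN45, log2 fold change 11.45 ± 0.63 SE, edgeR adjusted p = 2.74e-07. LYZ, lysozyme, which gastric gland cells and leukocytes both make, was at 0.0527, 0.22 and 0 CPM in MKN28 and at 129, 137 and 98 CPM in MKN45 (1335-fold higher, log2 fold change 10.28 ± 0.66 SE, edgeR adjusted p = 4.74e-07); PTPRC, the common leukocyte antigen, had 0 counts over the MKN45 libraries.

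Keratins and cornified-layer genes went the other way. Of the keratins, 2 of 17 tested were higher in MKN45 and 9 in MKN28, with a median log2 fold change of -2.23. KRT14, a basal keratin, was at 11.5, 26.2 and 12.6 CPM in MKN28 and 0 counts in all 3 MKN45 libraries (at least 262.94-fold higher, edgeR adjusted p = 7.43e-06). KRT17, a keratin of stress and basal cells, was at 111, 218 and 94.9 CPM in MKN28 and at 0.992, 3.59 and 1.37 CPM in MKN45 (71.2-fold higher, log2 fold change -6.18 ± 0.59 SE, edgeR adjusted p = 5.57e-06). KRT13, of mucosal stratified epithelium, was at 52.3, 45.6 and 19.4 CPM in MKN28 and at 0.22, 0.312 and 0.435 CPM in MKN45 (121-fold higher, log2 fold change -6.90 ± 0.57 SE, edgeR adjusted p = 2.22e-06). KRT81, a hair keratin, was at 218, 525 and 195 CPM in MKN28 and at 0.276, 1.95 and 0.932 CPM in MKN45 (297-fold higher, log2 fold change -8.26 ± 0.72 SE, edgeR adjusted p = 2.92e-06), and KRT23 was 489.5-fold higher in MKN28, log2 fold change -8.89 ± 0.53 SE, edgeR adjusted p = 3.54e-07. In each of these 5 genes the lowest MKN28 library exceeded the highest MKN45 library. The lines did not overlap, in either direction, for 52.3% of all genes tested. KRT15 and KRT10 were the 2 called higher in MKN45, at 5.37-fold higher and 2.95-fold higher. KRT7 was at 376, 398 and 394 CPM in MKN28 and at 293, 712 and 300.4 CPM in MKN45 and did not pass (edgeR adjusted p = 0.757). Type I and type II keratins share sequence, so reads of close members could be split.

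Of the S100 and epidermal genes, 3 of 19 tested were higher in MKN45 and 9 in MKN28, with a median log2 fold change of -0.25. SPRR3, a cornified envelope precursor, was at 14.1, 20.3 and 12.5 CPM in MKN28 and 0 counts in all 3 MKN45 libraries (at least 245.66-fold higher, edgeR adjusted p = 3.98e-06). TGM2, tissue transglutaminase, was at 1126, 2316 and 869 CPM in MKN28 and at 11.1, 13.7 and 7.14 CPM in MKN45 (135-fold higher, log2 fold change -7.08 ± 0.52 SE, edgeR adjusted p = 1.05e-06). TGM1, the transglutaminase of the cornified envelope, was 11.6-fold higher in MKN28, log2 fold change -3.53 ± 0.43 SE, edgeR adjusted p = 4.11e-05. The 3 called higher in MKN45 were all S100 calcium-binding proteins: S100A4 was at 14.8, 15.1 and 8.06 CPM in MKN28 and at 445, 793 and 437 CPM in MKN45 (44.2-fold higher, log2 fold change 5.47 ± 0.43 SE, edgeR adjusted p = 1.69e-06), S100A6 was 10.2-fold higher in MKN45 and S100A2 was 17.1-fold higher in MKN45. The same stretch of chromosome 1, the epidermal differentiation complex, therefore held S100A9 and the SPRR genes at 0 or 1 count in MKN45 next to S100A4 and S100A6 at a far higher level.

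**Figure D2:**
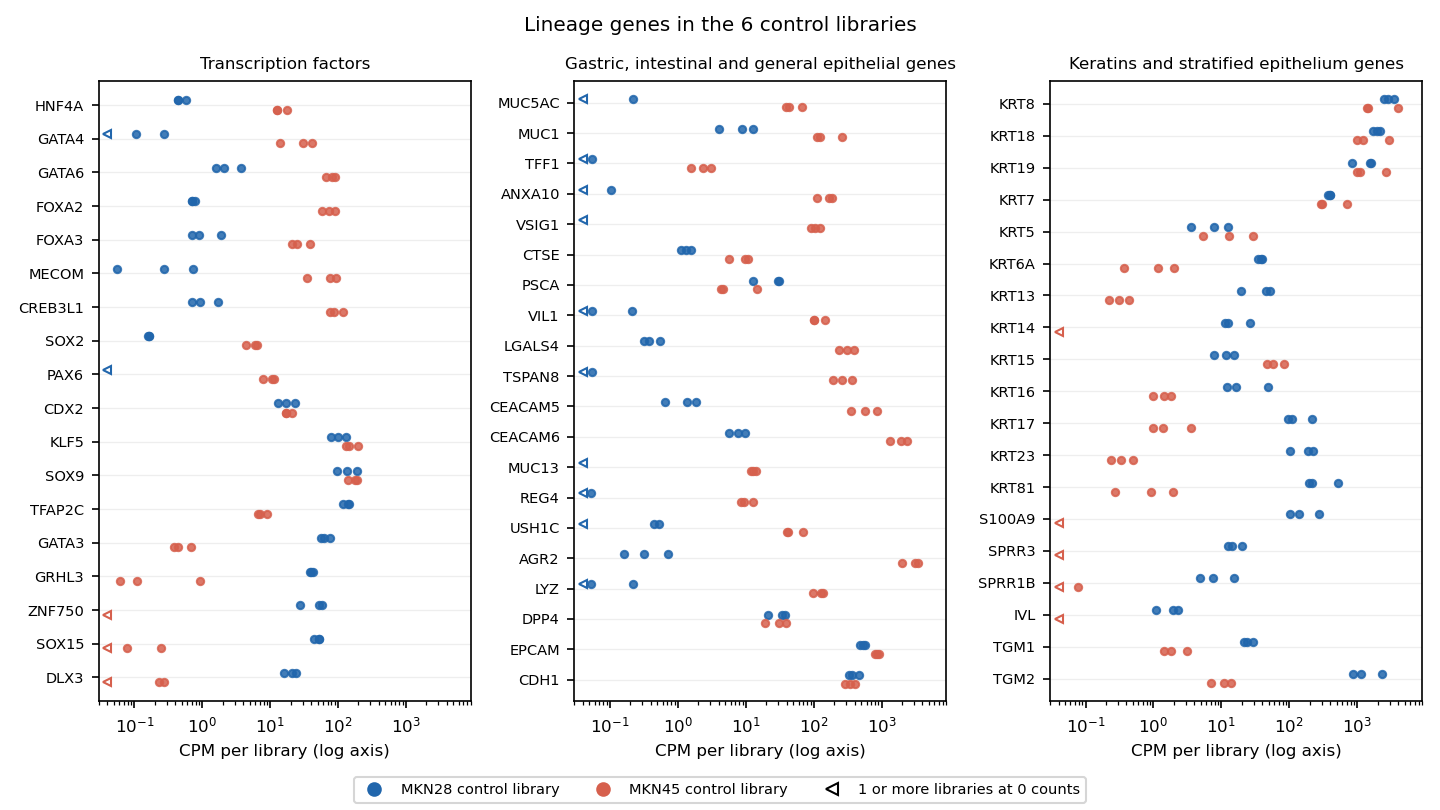
CPM of lineage genes in each of the 6 control libraries on a log axis, MKN28 in blue and MKN45 in red, with open triangles for libraries at 0 counts. HNF4A, GATA4, GATA6, FOXA factors, gastric mucins and intestinal genes were higher in MKN45 and most keratins and epidermal genes in MKN28, while CDX2, EPCAM, CDH1, KRT8 and KRT18 overlapped or lay close.

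HOX genes, the homeobox factors that mark position along the body, were called in 1 direction only among those with enough counts to be tested. Of the HOXA cluster, 5 of 10 tested were higher in MKN45 and 0 in MKN28, with a median log2 fold change of 0.84, and of the HOXB cluster, 7 of 8 tested were higher in MKN45 and 0 in MKN28, with a median log2 fold change of 2.19. Of the HOXC cluster, 4 of 7 tested were higher in MKN45 and 0 in MKN28, with a median log2 fold change of 2.19, and both HOXD genes tested, HOXD1 and HOXD13, were higher in MKN45. Too few counts to be tested had 7 of 9 HOXD genes listed, 1 of 11 HOXA, 2 of 10 HOXB and 2 of 9 HOXC. A gene near 0 in one line passed this filter only through the other line. With no filter on low counts, 2 of 6 HOXD genes were higher in MKN45 and 1 in MKN28, with a median of 0.52. The HOXA, HOXB and HOXC clusters then still had 0 higher in MKN28. HOXB13, a posterior gene, was at 0 counts in all 3 MKN28 libraries and at 29, 41.5 and 21.7 CPM in MKN45 (at least 569-fold higher, edgeR adjusted p = 1.87e-06). HOXA10 was at 0.421, 0.66 and 0.762 CPM in MKN28 and at 26.1, 24.8 and 30.8 CPM in MKN45 (44.3-fold higher, log2 fold change 5.45 ± 0.44 SE, edgeR adjusted p = 1.86e-06). HOXA13, at the end of that cluster, was at 0.685, 0.77 and 0.381 CPM in MKN28 and at 22.1, 17.5 and 17.2 CPM in MKN45 (31-fold higher, log2 fold change 4.94 ± 0.46 SE, edgeR adjusted p = 4.77e-06). HOXC10 was at 7.38, 8.91 and 7.02 CPM in MKN28 and at 65.1, 102 and 88.3 CPM in MKN45 (10.9-fold higher, log2 fold change 3.45 ± 0.35 SE, edgeR adjusted p = 9.92e-06). Some HOX genes were transcribed in both lines: HOXB9 was at 11.3, 21.7 and 5.5 CPM in MKN28 and at 17.3, 27.2 and 23.3 CPM in MKN45, and HOXC13 at 11.2, 18 and 12.6 CPM in MKN28 and at 13.5, 19.1 and 14.3 CPM in MKN45, and neither passed (edgeR adjusted p = 0.182 and 0.739). Antisense transcripts lie over the clusters, and whether the counting used strand is not given in the sources used here. A running median over 15 tested neighbours passed 2 in absolute log2 fold change on chromosome 17 from SNX11 to LINC02086, which holds the HOXB cluster; of the 25 genes under these windows, 19 were higher in MKN45 and 0 in MKN28, with a median of up to 3.34.

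**Figure D3:**
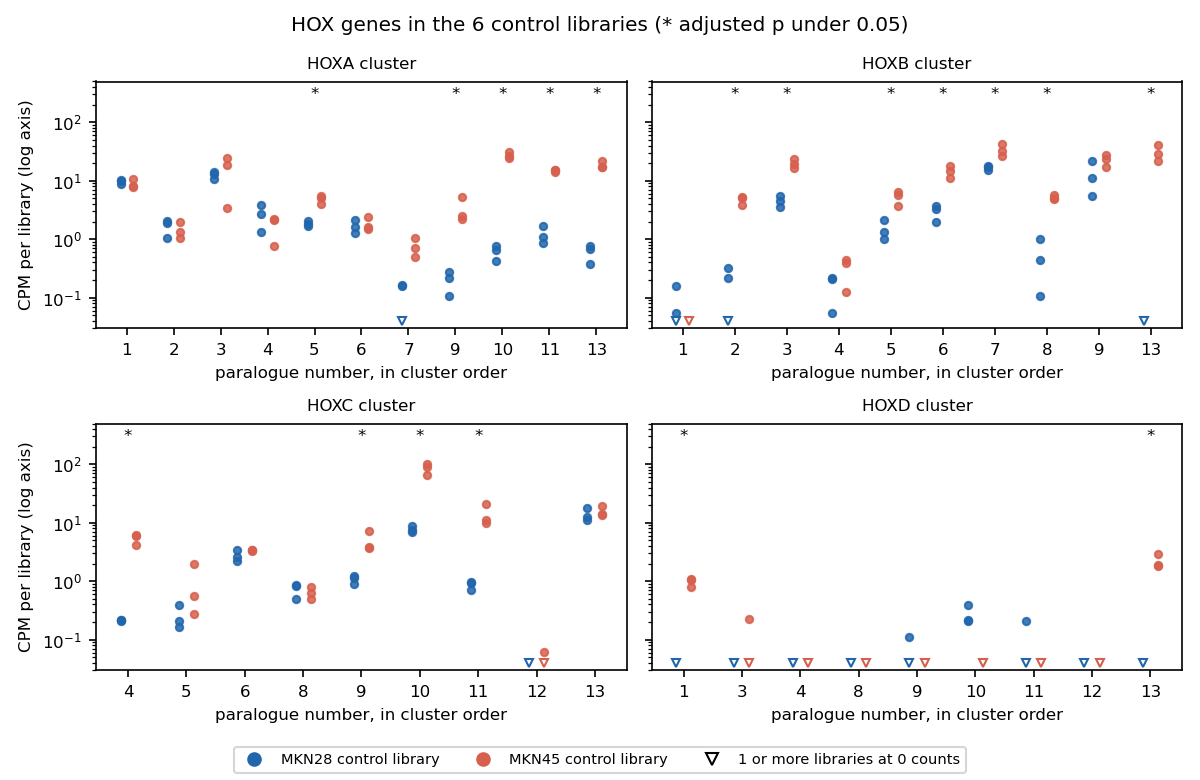
CPM of the HOX genes in the 6 control libraries by paralogue number in cluster order, on a log axis, MKN28 in blue and MKN45 in red; open triangles mark libraries at 0 counts and stars an adjusted p under 0.05. Every star is on a gene higher in MKN45, and HOXB13 has the largest difference, at least 569-fold.

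Homeobox and SOX factors outside the HOX clusters were split: 11 of 36 tested were higher in MKN45 and 12 in MKN28, with a median log2 fold change of -0.20. TLX1 was at 0 counts in all 3 MKN28 libraries and at 18.2, 28.3 and 15 CPM in MKN45 (at least 379.67-fold higher, edgeR adjusted p = 2.94e-06). SOX15 was at 44, 53.1 and 51.8 CPM in MKN28 and at 0, 0.0781 and 0.248 CPM in MKN45 (456-fold higher, log2 fold change -8.76 ± 0.66 SE, edgeR adjusted p = 1.22e-06). DLX3, a factor of epidermal differentiation, was at 23.8, 20.7 and 16.1 CPM in MKN28 and at 0.276, 0.234 and 0 CPM in MKN45 (119-fold higher, log2 fold change -6.84 ± 0.67 SE, edgeR adjusted p = 6.76e-06). For these 3 genes the lower line had at most 8 counts over its libraries.

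Of adherens junction and desmosome genes, 1 of 20 tested were higher in MKN45 and 8 in MKN28, with a median log2 fold change of -0.72. DSP, desmoplakin, was at 1203, 580.1 and 962 CPM in MKN28 and at 309.7, 127 and 221 CPM in MKN45 (4.17-fold higher, log2 fold change -2.06 ± 0.40 SE, edgeR adjusted p = 0.00131). DSC3, a desmocollin, was the 1 gene called in the other direction, at 0 counts in all 3 MKN28 libraries and at 9.97, 2.5 and 9.32 CPM in MKN45 (at least 134-fold higher, edgeR adjusted p = 5.1e-05). Of tight junction genes, 6 of 21 tested were higher in MKN45 and 7 in MKN28, with a median log2 fold change of -0.34. The counts were 3 and 7 without MKN28 replicate 1. TJP1, the scaffold ZO-1, was at 527, 236 and 573 CPM in MKN28 and at 84.5, 31.4 and 69.3 CPM in MKN45 (7.21-fold higher, log2 fold change -2.85 ± 0.45 SE, edgeR adjusted p = 0.000311). OCLN, occludin, was at 71.2, 48.8 and 79.2 CPM in MKN28 and at 15.3, 3.83 and 5.28 CPM in MKN45 (8.16-fold higher, log2 fold change -3.02 ± 0.51 SE, edgeR adjusted p = 0.00048). Replicate 2 was the lowest library of its line for TJP1. CLDN1 was higher in MKN45 (3.82-fold higher, log2 fold change 1.93 ± 0.37 SE, edgeR adjusted p = 0.00124).

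Mesenchymal genes did not lie on one side: 10 of 19 tested were higher in MKN45 and 7 in MKN28, with a median log2 fold change of 1.67. TWIST1, a repressor of epithelial genes, was at 0 counts in all 3 MKN28 libraries and at 13.6, 19.8 and 14.2 CPM in MKN45 (at least 294-fold higher, edgeR adjusted p = 2.94e-06). COL4A2, a basement membrane collagen chain, was at 0.158, 0.825 and 0.544 CPM in MKN28 and at 176, 205 and 168 CPM in MKN45 (359-fold higher, log2 fold change 8.47 ± 0.55 SE, edgeR adjusted p = 5.02e-07), and its partner COL4A1 was 28.7-fold higher in MKN45. In contrast, SNAI1, another repressor of epithelial genes, was at 19.1, 42.6 and 14.2 CPM in MKN28 and at 0.496, 0.781 and 1.37 CPM in MKN45 (28.7-fold higher, log2 fold change -4.83 ± 0.58 SE, edgeR adjusted p = 3.47e-05). FN1, fibronectin, was at 76.3, 65.7 and 62.4 CPM in MKN28 and at 3.91, 4.14 and 3.42 CPM in MKN45 (17.8-fold higher, log2 fold change -4.15 ± 0.35 SE, edgeR adjusted p = 2.63e-06). VIM, vimentin, was near the floor in both lines, at 0.421, 0.88 and 0.218 CPM in MKN28 and at 1.76, 1.48 and 1.61 CPM in MKN45 (3.2-fold higher, log2 fold change 1.67 ± 0.57 SE, edgeR adjusted p = 0.0321), and the call was lost without MKN28 replicate 1 or 3 or without any 1 MKN45 replicate (edgeR adjusted p = 0.0576 to 0.135). TWIST1 was thus on the MKN45 side and SNAI1 on the MKN28 side, and both lines were low in VIM.

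MET, the receptor of hepatocyte growth factor, was the most abundant receptor tyrosine kinase of MKN45 in CPM among those tested. It was at 97.2, 68.7 and 84.2 CPM in MKN28 and at 2578, 812 and 2272 CPM in MKN45 (22.6-fold higher, log2 fold change 4.50 ± 0.46 SE, edgeR adjusted p = 1.05e-05). MKN45 replicate 2 was well below the other 2, yet above every MKN28 library. Of the receptor tyrosine kinases, 7 of 26 tested were higher in MKN45 and 9 in MKN28, with a median log2 fold change of -0.19. FGFR1 was at 0.105, 0 and 0 CPM in MKN28 and at 32.7, 39.7 and 29.4 CPM in MKN45 (930.0-fold higher, 95% counting interval 257 to 7686, edgeR adjusted p = 1.03e-06). FGFR4, a receptor of endodermal FGFs, was at 25.1, 32.7 and 21.6 CPM in MKN28 and at 119, 214 and 126 CPM in MKN45 (5.78-fold higher, log2 fold change 2.53 ± 0.36 SE, edgeR adjusted p = 0.000132). EGFR was at 312, 279 and 327 CPM in MKN28 and at 123, 67.8 and 96 CPM in MKN45 (3.2-fold higher, log2 fold change -1.68 ± 0.32 SE, edgeR adjusted p = 0.00114). IGF1R was at 309, 278 and 246 CPM in MKN28 and at 73.7, 57.1 and 62.6 CPM in MKN45 (4.31-fold higher, log2 fold change -2.11 ± 0.30 SE, edgeR adjusted p = 0.000135). AXL, another receptor tyrosine kinase of this list, was 16.4-fold higher in MKN28, log2 fold change -4.03 ± 0.46 SE, edgeR adjusted p = 2.37e-05. ERBB2, ERBB3 and FGFR2, known targets in gastric cancer, did not pass: their means were 146, 152 and 12.6 CPM in MKN28 and 249, 97.8 and 15.6 CPM in MKN45 (edgeR adjusted p = 0.0948, 0.152 and 0.519). With the replicate block ERBB2 and ERBB3 passed (adjusted p = 0.00662 and 0.0163).

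The genes beside MET on chromosome 7 were also higher in MKN45. Of the 19 listed neighbours, 7 had too few counts to be tested. Of the rest, 12 of 12 tested were higher in MKN45 and 0 in MKN28, with a median log2 fold change of 2.85. MDFIC, an inhibitor of MyoD-family factors, was at 0 counts in all 3 MKN28 libraries and at 40.3, 16.8 and 143 CPM in MKN45 (at least 1232-fold higher, edgeR adjusted p = 2.82e-05). CAV1, caveolin, was at 35.9, 46 and 53.8 CPM in MKN28 and at 178, 337 and 488 CPM in MKN45 (7.4-fold higher, log2 fold change 2.89 ± 0.40 SE, edgeR adjusted p = 0.000114). CAPZA2, an actin-capping subunit, was at 91.2, 44.3 and 103 CPM in MKN28 and at 751, 463 and 680.4 CPM in MKN45 (7.96-fold higher, log2 fold change 2.99 ± 0.39 SE, edgeR adjusted p = 6.94e-05). TSPAN12, a tetraspanin, was 16.5-fold higher in MKN45, log2 fold change 4.04 ± 0.42 SE, edgeR adjusted p = 1.08e-05, and ING3, a chromatin reader, was 7.01-fold higher in MKN45, log2 fold change 2.81 ± 0.51 SE, edgeR adjusted p = 0.000845. In the order of tested protein-coding genes, those from FOXP2 to IQUB were called higher in MKN45. SMIM30 and BMT2 before them and NDUFA5 and WASL after them did not pass. NDUFA5, the nearest of these to the called genes, was at 41.1, 34.1 and 47.5 CPM in MKN28 and at 56.2, 18.2 and 57.3 CPM in MKN45. Over the 36 genes under the windows of the run from MDFIC to IQUB, 22 were higher in MKN45 and 3 in MKN28.

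**Figure D4:**
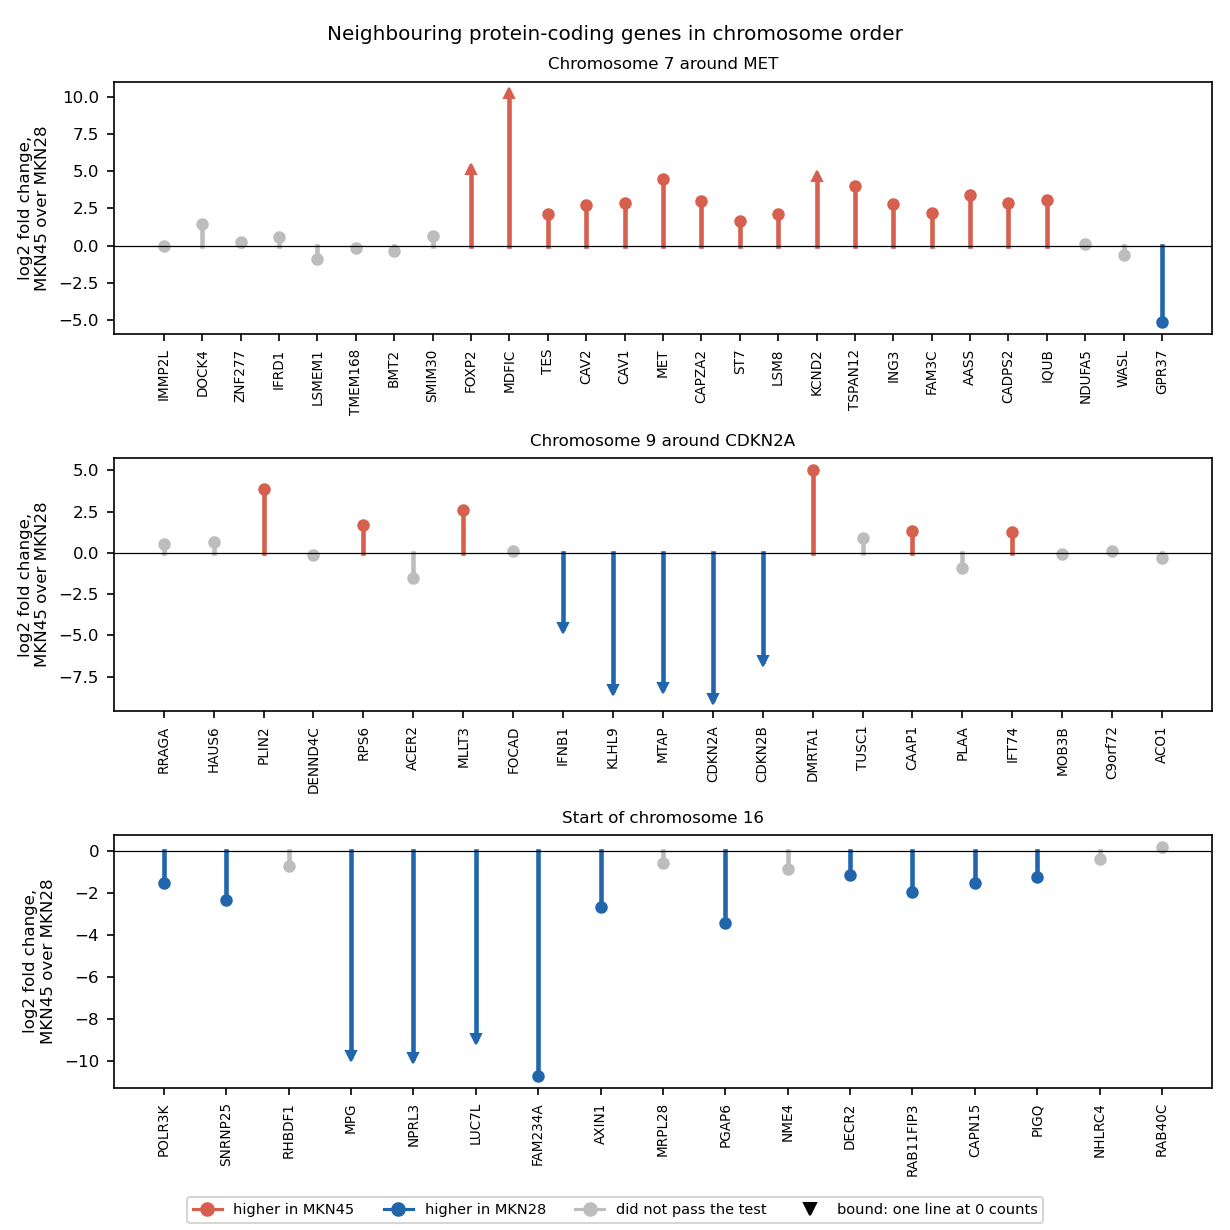
Log2 fold change, MKN45 over MKN28, of tested protein-coding genes in chromosome order around MET, around CDKN2A and at the start of chromosome 16; triangles are bounds for genes with 0 counts in one line. The genes from FOXP2 to IQUB lie above 0 as a block, and IFNB1 to CDKN2B and MPG to FAM234A lie far below it.

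Surface proteins that antibodies or drugs target differed in both directions: 5 of 27 tested were higher in MKN45 and 11 in MKN28, with a median log2 fold change of -0.72. The counts were 8 and 15 with the replicate block and 8 and 10 without MKN28 replicate 2. ICAM1, the adhesion ligand of leukocyte integrins, was at 118, 342 and 89.3 CPM in MKN28 and at 0.827, 0.546 and 0.497 CPM in MKN45 (294-fold higher, log2 fold change -8.17 ± 0.65 SE, edgeR adjusted p = 1.73e-06). NECTIN4 was 5.18-fold higher in MKN28, log2 fold change -2.37 ± 0.40 SE, edgeR adjusted p = 0.000453. CD274, the ligand PD-L1, was at 3.85, 2.8 and 14.4 CPM in MKN28 and at 0.937, 0 and 1.18 CPM in MKN45 (9.96-fold higher, log2 fold change -3.26 ± 0.87 SE, edgeR adjusted p = 0.0099), and the call was lost without MKN28 replicate 3, its highest library (edgeR adjusted p = 0.0571). GPC3, a glypican, was at 0.0527, 0 and 0 CPM in MKN28 and at 12.7, 16.8 and 13 CPM in MKN45 (773-fold higher, 95% counting interval 138 to 30579, edgeR adjusted p = 1.62e-06), and SLC44A4, a choline-family transporter, was 175-fold higher in MKN45, log2 fold change 7.37 ± 0.68 SE, edgeR adjusted p = 4.7e-06. CD44, the hyaluronan receptor and a marker of gastric stem-like cells, was at 0.843, 0.935 and 0.163 CPM in MKN28 and at 798, 875 and 876 CPM in MKN45 (1313-fold higher, log2 fold change 10.34 ± 0.60 SE, edgeR adjusted p = 3.3e-07). MKN28 libraries held 16, 17 and 3 counts of CD44.

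Among tetraspanins and CEACAM genes 10 of 20 tested were higher in MKN45 and 2 in MKN28, with a median log2 fold change of 1.21. The counts were 12 and 5 with the replicate block, 10 and 1 without MKN28 replicate 1, 11 and 0 without MKN28 replicate 2, 10 and 4 without MKN28 replicate 3, 10 and 1 without MKN45 replicate 1 and 10 and 0 without MKN45 replicate 3. Integrins and laminins were balanced, since 5 of 18 tested were higher in MKN45 and 5 in MKN28, with a median log2 fold change of 0.16. The counts were 4 and 1 without MKN28 replicate 1, 6 and 3 without MKN28 replicate 2, 5 and 3 without MKN45 replicate 1 and 5 and 2 without MKN45 replicate 3. ITGB6, the epithelial integrin that activates TGF-beta, was at 0, 0 and 0.0544 CPM in MKN28 and at 89, 28.4 and 64.8 CPM in MKN45 (3569-fold higher, 95% counting interval 640.1 to 141010.0, edgeR adjusted p = 9.26e-07). LAMA3, the alpha chain of laminin 332, was at 2.11, 0.55 and 2.01 CPM in MKN28 and at 508, 294 and 332 CPM in MKN45 (243-fold higher, log2 fold change 7.91 ± 0.57 SE, edgeR adjusted p = 9.22e-07). LAMA1, an embryonic laminin chain, was at 31.8, 28.6 and 35.2 CPM in MKN28 and 0 counts in all 3 MKN45 libraries (at least 500.05-fold higher, edgeR adjusted p = 1.3e-06). Among glycosyltransferases 12 of 24 tested were higher in MKN45 and 4 in MKN28, with a median log2 fold change of 1.12. ABO, the blood group transferase, was at 0 counts in all 3 MKN28 libraries and at 17.1, 17.1 and 10.2 CPM in MKN45 (at least 274-fold higher, edgeR adjusted p = 4e-06). ST6GAL1, which adds sialic acid, was at 0 counts in all 3 MKN28 libraries and at 52.7, 35.9 and 139.8 CPM in MKN45 (at least 1409-fold higher, edgeR adjusted p = 4.57e-06). FUT3, the Lewis fucosyltransferase, was 21.9-fold higher in MKN28, log2 fold change -4.45 ± 0.44 SE, edgeR adjusted p = 7.24e-06.

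In glycolysis, 8 of 24 tested were higher in MKN45 and 2 in MKN28, with a median log2 fold change of 0.60. The counts were 8 and 1 without MKN28 replicate 1, 8 and 1 without MKN28 replicate 3, 8 and 1 without MKN45 replicate 2 and 7 and 1 without MKN45 replicate 3. LDHB, the lactate dehydrogenase subunit that favours pyruvate, was at 0.263, 0.165 and 0.163 CPM in MKN28 and at 623, 646 and 677 CPM in MKN45 (3289-fold higher, log2 fold change 11.63 ± 0.47 SE, edgeR adjusted p = 1.12e-07). HK2, hexokinase 2, was at 0.632, 0.55 and 0.653 CPM in MKN28 and at 284, 213 and 179 CPM in MKN45 (368-fold higher, log2 fold change 8.51 ± 0.44 SE, edgeR adjusted p = 2.01e-07). HK1, hexokinase 1, was at 413, 539.7 and 301 CPM in MKN28 and at 64.8, 107 and 56.6 CPM in MKN45 (5.48-fold higher, log2 fold change -2.45 ± 0.37 SE, edgeR adjusted p = 0.000198). HKDC1, a related hexokinase, was 56.3-fold higher in MKN45, log2 fold change 5.81 ± 0.45 SE, edgeR adjusted p = 1.44e-06. PGK1, phosphoglycerate kinase, was 3.84-fold higher in MKN45, log2 fold change 1.94 ± 0.30 SE, edgeR adjusted p = 0.000267. The lines therefore differed in which hexokinase was most abundant in CPM: HK1 in MKN28, and HK2 and HKDC1 in MKN45. SLC2A3, the glucose transporter GLUT3, was at 710.0, 1283 and 807 CPM in MKN28 and at 6.72, 3.75 and 0.186 CPM in MKN45 (263-fold higher, log2 fold change -8.03 ± 0.90 SE, edgeR adjusted p = 2.12e-05), and SLC16A1, the lactate transporter MCT1, was 5.12-fold higher in MKN28, log2 fold change -2.35 ± 0.39 SE, edgeR adjusted p = 0.000381. Over the nutrient carriers, 8 of 25 tested were higher in MKN45 and 4 in MKN28, with a median log2 fold change of 0.01.

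In fatty acid metabolism, 12 of 29 tested were higher in MKN45 and 2 in MKN28, with a median log2 fold change of 0.49. The counts were 13 and 5 with the replicate block, 9 and 1 without MKN28 replicate 1, 9 and 1 without MKN28 replicate 3 and 11 and 1 without MKN45 replicate 3. ACSL4, an acyl-CoA synthetase of polyunsaturated fatty acids, was at 32.3, 28.3 and 40.7 CPM in MKN28 and at 558, 159.9 and 462 CPM in MKN45 (11.7-fold higher, log2 fold change 3.54 ± 0.46 SE, edgeR adjusted p = 6.25e-05). FASN, fatty acid synthase, was 2.63-fold higher in MKN28, log2 fold change -1.40 ± 0.35 SE, edgeR adjusted p = 0.00717. The FASN call was lost when all 12 libraries entered the fit (edgeR adjusted p = 0.0617). In cholesterol synthesis and uptake, 5 of 24 tested were higher in MKN45 and 2 in MKN28, with a median log2 fold change of 0.14. The counts were 8 and 7 with the replicate block, 2 and 2 without MKN28 replicate 1, 4 and 0 without MKN28 replicate 3, 3 and 3 without MKN45 replicate 2 and 5 and 1 without MKN45 replicate 3. In serine, glycine and one-carbon metabolism, 7 of 17 tested were higher in MKN45 and 2 in MKN28, with a median log2 fold change of 0.50. The counts were 6 and 1 without MKN28 replicate 1, 9 and 1 without MKN28 replicate 2, 7 and 1 without MKN45 replicate 1 and 6 and 1 without MKN45 replicate 3. CBS and CTH, the pair of transsulfuration enzymes that make cysteine, were 1326-fold higher in MKN45, 95% counting interval 238 to 52441 and 10.3-fold higher in MKN45.

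In amino acid and urea metabolism, 5 of 21 tested were higher in MKN45 and 3 in MKN28, with a median log2 fold change of 0.31. The counts were 9 and 4 with the replicate block and 8 and 4 without MKN28 replicate 2. GLS2, a glutaminase, was at 0.896, 0.55 and 0.381 CPM in MKN28 and at 24.7, 35.7 and 26.4 CPM in MKN45 (47.5-fold higher, log2 fold change 5.55 ± 0.48 SE, edgeR adjusted p = 2.76e-06). GLUL, which makes glutamine, was 4.98-fold higher in MKN45, log2 fold change 2.32 ± 0.34 SE, edgeR adjusted p = 0.000188, and ASL, an enzyme of the urea cycle, was 8.62-fold higher in MKN45, log2 fold change 3.11 ± 0.38 SE, edgeR adjusted p = 3.85e-05. Of 22 secretory genes of liver type listed, 6 had enough counts, and 4 of 6 tested were higher in MKN45 and 1 in MKN28, with a median log2 fold change of 3.83. This median covers only the genes that passed the count filter. With no filter on low counts, 4 of 21 were higher in MKN45 and 1 in MKN28, with a median of 0.15. The apolipoprotein neighbours APOE and APOC1 had opposite directions: APOE was at 28.7, 54.7 and 16.3 CPM in MKN28 and at 0.441, 1.17 and 0.621 CPM in MKN45 (44.7-fold higher, log2 fold change -5.50 ± 0.60 SE, edgeR adjusted p = 1.56e-05). APOC1 was at 1.26, 1.59 and 0.925 CPM in MKN28 and at 17.3, 37.8 and 15 CPM in MKN45 (18.5-fold higher, log2 fold change 4.20 ± 0.50 SE, edgeR adjusted p = 3.27e-05). MT2A, the most abundant metallothionein in CPM, was 7.51-fold higher in MKN28, log2 fold change -2.92 ± 0.64 SE, edgeR adjusted p = 0.00313, the 1 called of the 3 metallothioneins tested.

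Of aldehyde, alcohol and retinoid enzymes, 14 of 25 tested were higher in MKN45 and 3 in MKN28, with a median log2 fold change of 1.09. ALDH1A1, which makes retinoic acid and is used as a stem cell marker, was at 0 counts in all 3 MKN28 libraries and at 107, 60.6 and 69.6 CPM in MKN45 (at least 1464-fold higher, edgeR adjusted p = 8.52e-07). ALDH2, the mitochondrial enzyme of ethanol breakdown, was at 0, 0.055 and 0.0544 CPM in MKN28 and at 135, 195 and 162 CPM in MKN45 (4453-fold higher, 95% counting interval 1232 to 36775, edgeR adjusted p = 2.01e-07). ALDH3A1 was at 0.158, 0 and 0 CPM in MKN28 and at 136, 379 and 115 CPM in MKN45 (3609-fold higher, 95% counting interval 1234 to 17502, edgeR adjusted p = 1.2e-06). CRABP2, a carrier of retinoic acid, went the other way. It was at 258, 373 and 170.4 CPM in MKN28 and at 0.386, 0.39 and 0.994 CPM in MKN45 (453-fold higher, log2 fold change -8.80 ± 0.56 SE, edgeR adjusted p = 4.74e-07). AKR1B10 was at or below 1.48 CPM in every library and did not pass (edgeR adjusted p = 0.338). ALDH1A1 RNA was thus higher in MKN45 and CRABP2 RNA in MKN28.

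Of glutathione and NRF2 genes, 10 of 31 tested were higher in MKN45 and 5 in MKN28, with a median log2 fold change of 0.64. The counts were 16 and 9 with the replicate block and 6 and 5 without MKN28 replicate 3. The MKN45 side held the glutathione enzymes MGST1 (956-fold), GSTM3 (58.2-fold) and GPX2 (38.4-fold). The MKN28 side held GCLM, a subunit of the enzyme that starts glutathione synthesis, at 75.4, 51.6 and 211 CPM in MKN28 and at 19.7, 14.5 and 20.4 CPM in MKN45 (6.19-fold higher, log2 fold change -2.63 ± 0.50 SE, edgeR adjusted p = 0.00106), and TXNRD1, thioredoxin reductase, which was 4.16-fold higher in MKN28, log2 fold change -2.06 ± 0.36 SE, edgeR adjusted p = 0.000682. The TXNRD1 call was lost when all 12 libraries entered the fit (edgeR adjusted p = 0.0585). GSTP1 was high in both, at 1089, 1602 and 963 CPM in MKN28 and at 897, 1647 and 952 CPM in MKN45, and did not pass (edgeR adjusted p = 0.897). Of 34 glucuronidation, sulfation and P450 genes listed, 19 had enough counts to be tested. Of these 19, 12 were higher in MKN45 and 5 in MKN28, with a median log2 fold change of 2.88. With no filter on low counts, 14 of 29 were higher in MKN45 and 7 in MKN28, with a median of 2.69. CYP1B1 was 35.5-fold higher in MKN45, log2 fold change 5.15 ± 0.42 SE, edgeR adjusted p = 1.79e-06. CYP24A1, which breaks down vitamin D, was at 53, 33.7 and 38 CPM in MKN28 and at 0.22, 0 and 0 CPM in MKN45 (566-fold higher, log2 fold change -8.84 ± 0.74 SE, edgeR adjusted p = 2.31e-06). UGT1A6 was 1495-fold higher in MKN45, but the UGT1A genes share their last exons, and the counting could assign a read to any of them. Of ABC drug transporters, 3 of 10 tested were higher in MKN45 and 4 in MKN28, with a median log2 fold change of -0.71; ABCG2 and ABCC2 were 79.2-fold higher in MKN28 and 52-fold higher in MKN28, and ABCB1 had 0 counts in all 6 libraries.

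Feedback genes and targets of the MAPK pathway were called more often in MKN45: 9 of 18 tested were higher in MKN45 and 4 in MKN28, with a median log2 fold change of 0.96. The counts were 7 and 2 without MKN45 replicate 3. DUSP6, the ERK phosphatase, was at 32, 15.7 and 10.5 CPM in MKN28 and at 261, 158 and 189.9 CPM in MKN45 (10.4-fold higher, log2 fold change 3.38 ± 0.45 SE, edgeR adjusted p = 7.46e-05). DUSP4 was 7.21-fold higher in MKN45, log2 fold change 2.85 ± 0.31 SE, edgeR adjusted p = 1.81e-05, and SPRY2, an inhibitor of receptor signalling, was 3.68-fold higher in MKN45, log2 fold change 1.88 ± 0.36 SE, edgeR adjusted p = 0.00115. The EGFR ligands split: EREG was at 1.42, 0.33 and 0.599 CPM in MKN28 and at 39.4, 18.4 and 46.1 CPM in MKN45 (44.2-fold higher, log2 fold change 5.45 ± 0.60 SE, edgeR adjusted p = 1.82e-05) and AREG at 180.3, 144 and 71 CPM in MKN28 and at 13.6, 13 and 20.7 CPM in MKN45 (8.37-fold higher, log2 fold change -3.06 ± 0.41 SE, edgeR adjusted p = 9.07e-05). CCND1, cyclin D1, was at 509, 479 and 582 CPM in MKN28 and at 237, 253 and 230.0 CPM in MKN45 (2.18-fold higher, log2 fold change -1.13 ± 0.28 SE, edgeR adjusted p = 0.00704).

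Of Wnt targets, 6 of 30 tested were higher in MKN45 and 12 in MKN28, with a median log2 fold change of -0.16. The counts were 10 and 13 with the replicate block and 10 and 10 without MKN28 replicate 2. AXIN2, the usual readout of beta-catenin, was at 25.7, 25.4 and 26.1 CPM in MKN28 and at 0.882, 1.56 and 1.61 CPM in MKN45 (19-fold higher, log2 fold change -4.25 ± 0.42 SE, edgeR adjusted p = 7.66e-06). LEF1 was 47.7-fold higher in MKN28, log2 fold change -5.59 ± 0.56 SE, edgeR adjusted p = 8.27e-06, and NOTUM, a secreted inhibitor, was 17.8-fold higher in MKN28, log2 fold change -4.16 ± 0.56 SE, edgeR adjusted p = 8.94e-05. DKK1, a secreted inhibitor that beta-catenin can induce, was at 0 counts in all 3 MKN28 libraries and at 78.5, 63.1 and 40.2 CPM in MKN45 (at least 1122-fold higher, edgeR adjusted p = 1.06e-06). The feedback genes AXIN2, LEF1 and NOTUM were therefore higher in MKN28 and DKK1 in MKN45.

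Targets of YAP and TEAD were among the lists most one-sided for MKN28: 2 of 22 tested were higher in MKN45 and 13 in MKN28, with a median log2 fold change of -1.68. YAP1, the coactivator itself, was at 464, 259 and 452 CPM in MKN28 and at 3.2, 0.312 and 2.3 CPM in MKN45 (202-fold higher, log2 fold change -7.62 ± 0.68 SE, edgeR adjusted p = 3.75e-06). Its paralogue WWTR1, or TAZ, was at 23.8, 26.1 and 18.2 CPM in MKN28 and at 189, 167 and 219 CPM in MKN45 (8.44-fold higher, log2 fold change 3.08 ± 0.33 SE, edgeR adjusted p = 1.33e-05). The paralogues thus had opposite directions. VGLL1, a TEAD cofactor, was at 159.7, 256 and 151 CPM in MKN28 and at 0.0551, 0.39 and 0.124 CPM in MKN45 (995-fold higher, log2 fold change -10.02 ± 0.61 SE, edgeR adjusted p = 3.87e-07). ANKRD1, a target, was at 10.5, 7.04 and 3.76 CPM in MKN28 and 0 counts in all 3 MKN45 libraries (at least 111.53-fold higher, edgeR adjusted p = 2.94e-05).

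In the TGF-beta and BMP pathway, 6 of 35 tested were higher in MKN45 and 11 in MKN28, with a median log2 fold change of -0.53. The ligands BMP4 and BMP2 were higher in MKN45: BMP4 was at 4.74, 9.35 and 3.05 CPM in MKN28 and at 96.8, 57.6 and 46.9 CPM in MKN45 (11.7-fold higher, log2 fold change 3.55 ± 0.49 SE, edgeR adjusted p = 9.67e-05), and BMP2 was 16.7-fold higher in MKN45, log2 fold change 4.04 ± 0.52 SE, edgeR adjusted p = 5.81e-05. SMAD4 was silent there, as given above. The target ID3 was at 61.4, 37.9 and 54.8 CPM in MKN28 and at 3.03, 2.42 and 1.8 CPM in MKN45 (21.3-fold higher, log2 fold change -4.40 ± 0.41 SE, edgeR adjusted p = 4.76e-06), ID4 was at least 134-fold higher in MKN28, edgeR adjusted p = 1.51e-05, and SMAD7, an inhibitory target, was 5.05-fold higher in MKN28, log2 fold change -2.34 ± 0.38 SE, edgeR adjusted p = 0.000351. SMAD6, another inhibitory SMAD, was 11.6-fold higher in MKN45, log2 fold change 3.53 ± 0.36 SE, edgeR adjusted p = 9.76e-06. MKN45 thus combined higher BMP4, BMP2 and SMAD6 with lower ID3, ID4 and SMAD7.

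In the Notch pathway, 7 of 23 tested were higher in MKN45 and 7 in MKN28, with a median log2 fold change of 0.14. The counts were 6 and 4 without MKN45 replicate 3. JAG1, a ligand, was at 21.8, 16.8 and 16.3 CPM in MKN28 and at 249.8, 189 and 178 CPM in MKN45 (11.3-fold higher, log2 fold change 3.49 ± 0.34 SE, edgeR adjusted p = 6.07e-06). LFNG, the glycosyltransferase that tunes the receptors, was at 4.64, 4.12 and 3.48 CPM in MKN28 and at 99.9, 133 and 91.4 CPM in MKN45 (26.5-fold higher, log2 fold change 4.73 ± 0.37 SE, edgeR adjusted p = 1.49e-06). The receptor NOTCH3 was at 341, 536 and 184 CPM in MKN28 and at 69.2, 59.6 and 52.4 CPM in MKN45 (5.86-fold higher, log2 fold change -2.55 ± 0.40 SE, edgeR adjusted p = 0.000275), and HES2 was 27.2-fold higher in MKN28, log2 fold change -4.79 ± 0.74 SE, edgeR adjusted p = 0.000254. JAG1 and LFNG were thus on the MKN45 side and NOTCH3 and HES2 on the MKN28 side.

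**Figure D5:**
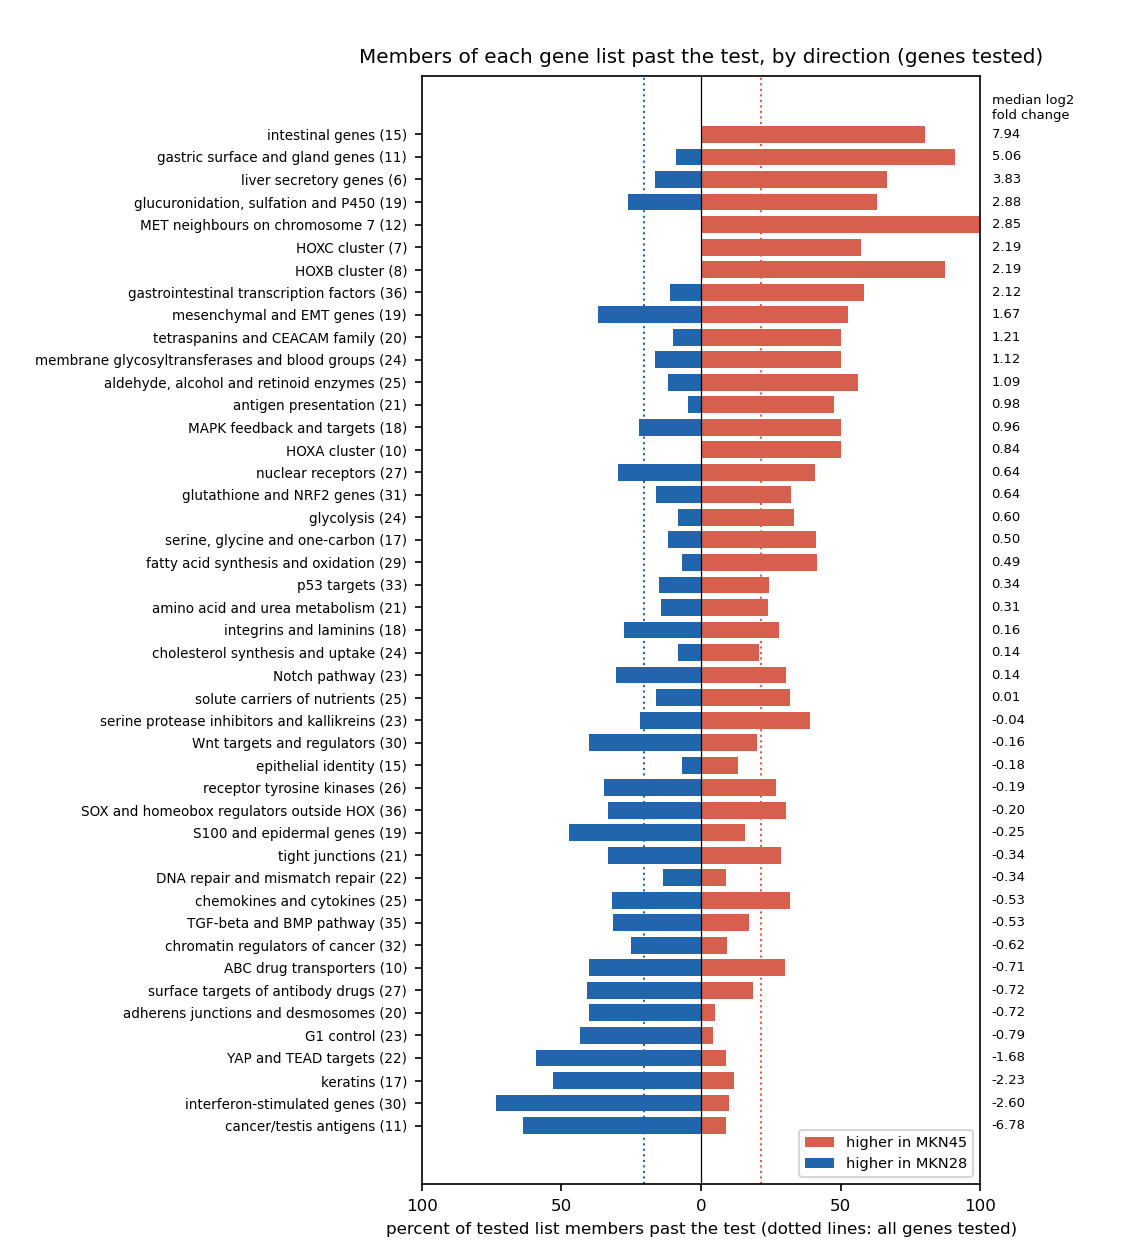
Percent of tested members of each gene list with an adjusted p under 0.05, higher in MKN45 (red, right) or in MKN28 (blue, left), ordered by the median log2 fold change printed at the right; dotted lines give the share over all 16088 genes tested, 21.4% and 20.4%. Intestinal and gastric genes lie at the top, and interferon-stimulated genes and cancer/testis antigens at the bottom.

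In cell cycle control of G1, 1 of 23 tested were higher in MKN45 and 10 in MKN28, with a median log2 fold change of -0.79. The counts were 0 and 9 without MKN28 replicate 1, 0 and 10 without MKN28 replicate 3, 0 and 9 without MKN45 replicate 1 and 0 and 7 without MKN45 replicate 3. CDKN2A, CDKN2B and MTAP, described above, are 3 of the 10 on the MKN28 side. CCND2, cyclin D2, was at 5.16, 10.2 and 4.03 CPM in MKN28 and at 0.496, 0.781 and 0.373 CPM in MKN45 (11.7-fold higher, log2 fold change -3.56 ± 0.56 SE, edgeR adjusted p = 0.000273), and CCNE1, cyclin E1, did not pass (edgeR adjusted p = 0.496). Among p53 targets, 8 of 33 tested were higher in MKN45 and 5 in MKN28, with a median log2 fold change of 0.34. The counts were 14 and 9 with the replicate block and 5 and 4 without MKN28 replicate 1. CDKN1A, which encodes the inhibitor p21, was at 169, 259 and 114 CPM in MKN28 and at 142, 184 and 122 CPM in MKN45, and MDM2 at 135, 39 and 83.5 CPM in MKN28 and at 64.6, 19 and 45.8 CPM in MKN45. GDF15, a stress cytokine, was at 424, 809 and 132 CPM in MKN28 and at 616, 2086 and 926 CPM in MKN45. None of the 3 passed (edgeR adjusted p = 0.564, 0.132 and 0.0707), though MDM2 and GDF15 did with the replicate block (adjusted p = 0.00258 and 0.00889). DDB2, a target in nucleotide excision repair, was 4.46-fold higher in MKN45, log2 fold change 2.16 ± 0.42 SE, edgeR adjusted p = 0.00134.

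Of chromatin regulators, 3 of 32 tested were higher in MKN45 and 8 in MKN28, with a median log2 fold change of -0.62, so the MKN28 side was near the share over all genes tested. The counts were 4 and 15 with the replicate block and 2 and 5 without MKN45 replicate 3. ARID1A, a subunit of the BAF complex that is often mutated in gastric cancer, was at 196, 149 and 214 CPM in MKN28 and at 34.9, 35 and 30.4 CPM in MKN45 (5.58-fold higher, log2 fold change -2.48 ± 0.31 SE, edgeR adjusted p = 5.47e-05). TET3, which oxidises methylated cytosine, was 5.7-fold higher in MKN28, log2 fold change -2.51 ± 0.36 SE, edgeR adjusted p = 0.000129. SMARCD3, another BAF subunit, was at 1.001, 1.76 and 0.327 CPM in MKN28 and at 13.8, 24.3 and 12.7 CPM in MKN45 (16.4-fold higher, log2 fold change 4.03 ± 0.58 SE, edgeR adjusted p = 0.000146). In DNA repair, 2 of 22 tested were higher in MKN45 and 3 in MKN28, with a median log2 fold change of -0.34. The counts were 5 and 9 with the replicate block, 1 and 2 without MKN28 replicate 1 and 1 and 2 without MKN45 replicate 3. MGMT, which reverses O6-alkylguanine, was at 12.8, 22.6 and 9.09 CPM in MKN28 and at 45.9, 89.5 and 61.5 CPM in MKN45 (4.43-fold higher, log2 fold change 2.15 ± 0.42 SE, edgeR adjusted p = 0.00139).

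Most interferon-stimulated genes were higher in MKN28: 3 of 30 tested were higher in MKN45 and 22 in MKN28, with a median log2 fold change of -2.60. IRF7, the factor that amplifies interferon induction, was at 30.8, 49.4 and 22.8 CPM in MKN28 and at 0, 0.0781 and 0 CPM in MKN45 (1612-fold higher, 95% counting interval 289 to 63689, edgeR adjusted p = 1.2e-06). IFIT1, an RNA-binding effector, was at 250.1, 212 and 175 CPM in MKN28 and at 5.07, 2.89 and 5.4 CPM in MKN45 (47.7-fold higher, log2 fold change -5.57 ± 0.40 SE, edgeR adjusted p = 9.26e-07). RIGI, the RNA sensor, was at 146, 110.4 and 141 CPM in MKN28 and at 4.9, 1.72 and 5.65 CPM in MKN45 (32.4-fold higher, log2 fold change -5.01 ± 0.47 SE, edgeR adjusted p = 5.38e-06). All MKN28 libraries lay above all MKN45 libraries for these 3, while the lines did not overlap for 52.3% of all genes tested. The 3 called higher in MKN45 were the neighbours IFITM1 (7.9-fold), IFITM2 (3.4-fold) and IFITM3 (3.38-fold), membrane proteins that block virus entry. The IFITM2 call was lost without MKN28 replicate 1 or 3 or MKN45 replicate 2 or 3 (edgeR adjusted p = 0.0512 to 0.0954). Named after their values were seen, the lambda interferons IFNL1, IFNL2 and IFNL3 had totals of 445, 354 and 389 counts in MKN28 and 0 in MKN45. IFNL2 and IFNL3 are near-identical copies.

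Antigen presentation genes went the other way: 10 of 21 tested were higher in MKN45 and 1 in MKN28, with a median log2 fold change of 0.98. PSMB8, an immunoproteasome subunit, was at 0.0527, 0 and 0 CPM in MKN28 and at 107, 177 and 120.3 CPM in MKN45 (7256-fold higher, 95% counting interval 1302 to 286630.0, edgeR adjusted p = 2.59e-07). ERAP2, which trims peptides, was at 0.527, 0.275 and 0.381 CPM in MKN28 and at 99.4, 33.1 and 81.1 CPM in MKN45 (181-fold higher, log2 fold change 7.47 ± 0.57 SE, edgeR adjusted p = 1.37e-06). B2M, which pairs with all class I chains, was at 242, 372 and 318 CPM in MKN28 and at 465, 383 and 432 CPM in MKN45 and did not pass (edgeR adjusted p = 0.238). HLA-DRB1, of class II, was the 1 gene called higher in MKN28, at 20.02, 28.6 and 13.9 CPM in MKN28 and at 0.827, 0.468 and 0.807 CPM in MKN45 (29.7-fold higher, log2 fold change -4.86 ± 0.49 SE, edgeR adjusted p = 8.27e-06). HLA alleles differ from the reference and from each other, so a count of 0 or near 0 for an HLA gene is uncertain.

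Of chemokines and cytokines, 8 of 25 tested were higher in MKN45 and 8 in MKN28, with a median log2 fold change of -0.53. The counts were 5 and 9 without MKN28 replicate 3 and 5 and 6 without MKN45 replicate 2. CCL5 was at 44.1, 89.5 and 28.7 CPM in MKN28 and at 0.827, 1.64 and 1.61 CPM in MKN45 (39.8-fold higher, log2 fold change -5.32 ± 0.54 SE, edgeR adjusted p = 9.96e-06), and IL1A was 83-fold higher in MKN28, log2 fold change -6.34 ± 0.68 SE, edgeR adjusted p = 1.41e-05. CXCL3, a neutrophil attractant, was at 0.527, 0.715 and 0.708 CPM in MKN28 and at 7.49, 11.9 and 4.6 CPM in MKN45 (12.3-fold higher, log2 fold change 3.60 ± 0.51 SE, edgeR adjusted p = 0.000133). Of 32 cancer/testis antigens, 11 had enough counts, and 1 of 11 tested were higher in MKN45 and 7 in MKN28, with a median log2 fold change of -6.78 (-4.09 with genes at 0 in one line set at their bound). With no filter on low counts, 1 of 21 was higher in MKN45 and 10 in MKN28, with a median of -3.77. MAGEA1 was at 53.1, 63.6 and 61.3 CPM in MKN28 and 0 counts in all 3 MKN45 libraries (at least 930.82-fold higher, edgeR adjusted p = 8.04e-07). CT83 was the 1 called higher in MKN45, at 0 counts in all 3 MKN28 libraries and at 17.9, 24.8 and 16.1 CPM in MKN45 (at least 362.62-fold higher, edgeR adjusted p = 2.37e-06). MAGEA3, which has a nearly identical copy, was present in both lines and 2.84-fold higher in MKN28, log2 fold change -1.51 ± 0.35 SE, edgeR adjusted p = 0.00455.

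Nuclear receptors had both directions: 11 of 27 tested were higher in MKN45 and 8 in MKN28, with a median log2 fold change of 0.64. The counts were 9 and 4 without MKN28 replicate 1. With no filter on low counts they were 11 and 9 of 35, with a median of -0.27. NR2F2, or COUP-TFII, was at 634, 514 and 556 CPM in MKN28 and at 23.4, 26.1 and 20.4 CPM in MKN45 (24.3-fold higher, log2 fold change -4.61 ± 0.33 SE, edgeR adjusted p = 9.26e-07). RORA was at 61, 37.3 and 58.8 CPM in MKN28 and at 3.03, 1.95 and 2.55 CPM in MKN45 (20.9-fold higher, log2 fold change -4.37 ± 0.41 SE, edgeR adjusted p = 4.67e-06). On the MKN45 side, beside HNF4A, PPARG was 3.02-fold higher in MKN45, log2 fold change 1.59 ± 0.31 SE, edgeR adjusted p = 0.00137, and VDR, the vitamin D receptor, was 2.99-fold higher in MKN45, log2 fold change 1.58 ± 0.38 SE, edgeR adjusted p = 0.00504. VDR and CYP24A1, its known target, thus had opposite directions. Among protease inhibitors and proteases, 9 of 23 tested were higher in MKN45 and 5 in MKN28, with a median log2 fold change of -0.04; SERPINB2 was at least 192-fold higher in MKN28 and PRSS3, a trypsinogen with near copies, was 911-fold higher in MKN45, 95% counting interval 252 to 7529.9.

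The 6 libraries with altered ZNF165 repeat the line contrast without sharing a library with the controls, although line and ZNF165 state change together in them. Of 16105 genes tested between MKN45 overexpression and MKN28 knockdown libraries, 10073 passed (62.5%), 5631 higher in MKN45 (35.0%) and 4442 in MKN28 (27.6%). The split was 55.9% higher in MKN45, and 68.7% when scaled by library totals alone. Of 6268 genes called between the controls and tested there, 4484 (71.5%) had the same direction. Called in the same direction were 3442, which is 54.9% of the control calls and 36.3% of the altered-library calls on genes tested in both comparisons, and 829 were called in the opposite direction. Of the 2140 genes called with at least an 8-fold difference between controls, 1825 were tested there. Of these 1825 genes, 1766 (96.8%) kept their direction.

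Of the genes named above, CD44 had means of 0.569 ± 0.484 and 627 ± 14.5 CPM (SD, n = 3 libraries each), MKN28 knockdown first. HNF4A had 0.0215 ± 0.0373 and 12.2 ± 1.88 CPM, and GATA3 had 35.9 ± 2.39 and 0.316 ± 0.108 CPM. SMAD4 and CDKN2A had 0 counts in all 3 MKN45 overexpression libraries too. The direction with more calls turned for some lists. For chromatin regulators the counts were 20 and 2 of 31 tested, higher in MKN45 and higher in MKN28, and ARID1A no longer passed (log2 fold change -0.1, edgeR adjusted p = 0.801). EGFR was called in the opposite direction, with a log2 fold change of 2.39 (edgeR adjusted p = 0.0029). For adherens junction and desmosome genes they were 10 and 6 of 20, for antigen presentation 7 and 8 of 22 and for glutathione and NRF2 genes 11 and 14 of 31. The TGF-beta and BMP pathway had 20 and 9 of 36, receptor tyrosine kinases 12 and 6 of 25, Wnt targets 8 and 7 of 28, DNA repair genes 11 and 3 of 22 and ABC transporters 6 and 1 of 9. Homeobox and SOX factors outside the HOX clusters had 18 and 11 of 36 and the epithelial identity list 5 and 7 of 15. In the HOXB cluster 2 genes were called higher in MKN28, with counts of 5 and 2 of 9, and interferon-stimulated genes had 5 and 11 of 28. Replicates 2 and 3 of the MKN28 knockdown stood apart in base composition, with rho of 0.327 and 0.316 between level and GC content, and its part in these changes was not tested. The same replicates have the descriptions that name other genes.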

How the data were processed

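RNA-seq of 12 libraries in 4 groups of 3 was deposited by the authors as 1 table of whole-number read counts per gene. The submitters' processing notes name HISAT2 and StringTie. Further detail on them, on the genome build and on strand was not given in the sources used here, and the deposited counts may be rounded estimates. Of 50868 identifiers, 49659 were in the gene name table and 50111 in GENCODE 29, which gave symbols and GRCh38 positions. Groups follow the genotype labels, which 2 descriptions contradict. The 6 controls held 15333499 to 18679466 counts, so 3 counts are 0.161 to 0.196 CPM in a library. No 2 replicates were duplicates (chi-square per degree of freedom 34.8 to 175 within a control group).

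Genes were kept with filterByExpr (minimum count 10, minimum total 15), scaled by TMM and tested with edgeR 4.0.16 (limma 3.58.1, R 4.3.3) by the quasi-likelihood test on the 2 control groups, with Benjamini-Hochberg adjustment over all genes tested and a threshold of 0.05; the code was tested on simulated data. A group at 0 was set at a floor of 3 counts over its 3 libraries, and a ratio against 1 to 3 counts has an exact 95% Poisson interval. Intervals and floors cover counting error only. The gene lists and the rule for named genes, as well as the members themselves, were chosen with earlier results of these data known. The rule took 55 chosen genes, up to 20 genes of largest fold in each direction with a mean of at least 20 CPM, up to 6 called members in each direction of each list with at least 5 CPM, genes at 0 counts in 1 line and at least 20 CPM in the other, and genes in runs of neighbours; a part of these is printed, and some genes that the rule names, 4 of the 55 among them, are not reported here. The labels number replicates 1 to 3 in each group. Deviations of same-numbered controls from their group means correlated at 0.333, 0.577 and 0.335, each over 0.1, although MKN28 replicate 3 also correlated with MKN45 replicate 1 (0.345) and 1 with 3 (0.192), so that only replicates 2 stood apart; the numbers were taken to pair the libraries and a fit with the number as a block was run. Alternatives were other scalings, no filter, DESeq2 1.42.0, all 12 libraries in 1 fit, length and GC trends removed and each library left out; leaving out both replicates 2, and the block with the length and GC trends, were chosen after seeing the data. Tables and figures were made with Python 3.11.15, pandas 2.3.3, scipy 1.17.1 and matplotlib 3.10.9. Copy number, DNA methylation and protein were not analysed here.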

Additional observations from a re-analysis of the deposited data

How the results depend on the processing

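Between 5085 and 9131 genes passed between the controls over the alternatives, against 6717. With the replicate block, which pairs libraries by number, 8939 genes passed, 4357 higher in MKN45 and 4582 in MKN28, and with the length and GC trends also removed 9131, 4015 and 5116. Leaving out 1 control library gave 5085 (without MKN28 replicate 1) to 7499. In the altered libraries, leaving out 1 gave 8144 to 13669. The median log2 fold change of all genes, -0.0391, moved by more than 0.1 to -0.159 with library totals, 0.107 with upper-quartile factors, -0.149 with no filter, -0.148 with the length and GC trends removed and -0.152 with the replicate block as well. Of 247 named genes past the threshold, none reversed under the 16 alternatives, and 7 lost the call under at least 1 (CD274, FASN, IFITM2, ME2, PSCA, TXNRD1 and VIM). Many of the 247 were named for their large differences in these same libraries, which the alternatives fit again. The result therefore does not measure how stable the calls of other genes are.

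Of 29 named genes that did not pass, 13 were called under at least 1 alternative, so not passing was not stable for these. Of the same 29 genes, 12 changed sign under at least 1 alternative, at the log2 fold changes given next. With both replicates 2 left out the values were BMT2 0.01, CDH1 0.09, KRT19 -0.11 and KRT7 -0.29. With the length and GC trends removed KRT19 was -0.11 and KRT7 -0.21, and with the replicate block as well -0.15 and -0.28. With the replicate block alone NDUFA5 was -0.05. Library totals gave CDX2 -0.06 and KRT7 -0.02, and upper-quartile factors GSTP1 0.07 and ZNF165 0.04. Leaving out 1 library gave values of CCNE1 from -0.46 to 0.00, CDH1 -0.27 to 0.06, CDKN1A -0.54 to 0.13, CDX2 -0.14 to 0.34, GSTP1 -0.39 to 0.23 and KRT18 -0.81 to 0.11. They were KRT19 -0.34 to 0.49, KRT7 -0.38 to 0.39, MEX3C -0.41 to 0.06, NDUFA5 -0.12 to 0.48 and ZNF165 -0.42 to 0.10. Genes with few counts in both lines could not be tested at this depth.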
